A study of Mus musculus with 272 samples.

Results

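The heavy fractions of sucrose gradients from mouse oocytes were compared before and after meiotic maturation, at the germinal vesicle (GV) stage and at metaphase II (MII). The members were fractions 6 to 10 of each of 3 gradients a stage, lettered A to C, which made 30 of the 272 libraries of the series (15 from GV and 15 from MII oocytes). For each gradient the 5 fractions were averaged, so each gene had 3 GV values and 3 MII values. Each gradient was loaded with a lysate of about 100 oocytes, made with cycloheximide, which holds ribosomes on their transcripts. Both stages are untreated mouse oocytes that differ by maturation. Strain, age, hormone treatment, and whether maturation took place in the animal or in culture are not given in the sources used here. The labels number the fractions and name none of them, so "heavy" means position in the gradient and not a measured ribosome number. Beside the gradients stand the light fractions 1 to 5 of the same gradients and 4 transcriptome libraries a stage, each from 20 oocytes. All libraries were made from poly(A) RNA, per the labels. Values are read counts scaled to the total of their library (CPM), and every change is MII minus GV on the log2(CPM + 1) scale.

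An oocyte at the GV stage is arrested in prophase of meiosis I and has stopped transcribing, so during maturation the transcripts that ribosomes read are chosen from a stored pool. Many stored transcripts have short poly(A) tails until cytoplasmic polyadenylation, directed by CPEB1 bound to a U-rich element near the 3′ end, lengthens them and draws them onto polysomes. Cyclin B1 (Ccnb1), the Mos kinase and tissue plasminogen activator (Plat) are textbook cases. In the same hours the CCR4-NOT deadenylase, recruited by Btg4 and other adaptors, shortens the tails of many other transcripts, among them those of ribosomal proteins and mitochondrial enzymes.

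The 30 heavy libraries held 14.3 to 40.5 M reads at GV and 17.9 to 27.9 M at MII, and a median of 9878 and 8542 genes reached 1 CPM. The fewest, 5467 genes, were in fraction 7 of MII gradient C, against 8682 and 9638 in the same fraction of gradients A and B. Across genes, Pearson's r was 0.923 to 0.935 between GV gradients, 0.882 to 0.908 between MII gradients and 0.786 to 0.840 between a GV and an MII gradient, as a description, since genes are not independent replicates. All 8 oocyte markers were tested (zona genes, Gdf9, Bmp15, Ooep, Nlrp5 and Oosp1), and their summed level was 20431 to 30310 CPM at GV and 39991 to 43721 CPM at MII. Of 14 cumulus and granulosa cell markers, 7 are in the table and 4 passed the filter (Inha, Cyp19a1, Amhr2 and Fshr). Their summed level was 28.5, 86.3 and 206 CPM in the GV gradients and 6.78, 36.1 and 11.9 CPM in the MII gradients, so the ranges overlap. The labels do not say that the gradients of a stage came from separate animals or days, so the p-values measure the spread between these gradients.

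Of 11516 genes tested, 717 were higher in the heavy fractions of MII oocytes and 1871 were lower (limma's moderated test, Benjamini-Hochberg adjusted p under 0.05 and a change of at least 1 on the log2 scale). These are 6.23% and 16.2% of the genes tested, and 22.5% together. In 14.2% of the tested genes all 3 MII values lay above the 3 GV values, and in 26.4% all 3 lay below. The median change of all tested genes was -0.22. Quantile normalization moved that median to 0.11 and the split of calls to 1142 higher and 1385 lower, and the reads behind the CPM values gave 932 higher and 1080 lower in edgeR's quasi-likelihood test, so the excess of falls depends on the scaling. Each fraction is scaled to its own total and no amount of RNA was used, so a transcript that left the heavy fractions and one that others outgrew there cannot be told apart. Gradient and transcriptome libraries were both made from poly(A) RNA. The part of tail length in the changes of either kind, or in their difference, was not tested.

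The largest rises in the heavy fractions were 3.08 to 3.70 on the log2 scale. Rln3, which encodes the peptide relaxin-3, was at 16.8, 29.9 and 39.6 CPM in the GV gradients and at 476, 254 and 401 CPM in the MII gradients, a change of 3.70 ± 0.36 (SE, n = 3 gradients a stage, limma adjusted p = 6e-05). Tmem50a, a small membrane protein gene, went from 99.1, 116 and 127 CPM to 1535, 1303 and 1226 CPM (3.56 ± 0.23, limma adjusted p = 1.7e-05). In both genes the stages are separated by several times the spread within a stage. Uqcrc2, a core subunit of respiratory complex III, was at 70.5, 108 and 111 CPM at GV and at 1045, 1113 and 1024 CPM at MII. Ogdh, the 2-oxoglutarate dehydrogenase of the citric acid cycle, was at 40.3, 56.5 and 82.3 CPM and then at 446, 668 and 583 CPM. Timm8a2, a copy of an import chaperone of the inner membrane, was at 24.7, 18.9 and 18.2 CPM and then at 313, 234 and 172 CPM. The changes of these genes of mitochondrial proteins were 3.47, 3.26 and 3.45. Groups that do not overlap were required of every gene named in this group. The glutathione transferase Gstm5 rose by 3.17 (39.4, 57.1 and 53.1 CPM to 551, 493 and 341 CPM), asparagine synthetase (Asns) by 3.37 (2.3, 5.79 and 4.66 CPM to 50.8, 53.7 and 48.3 CPM) and the Mediator subunit Med16 by 3.50. Ccar1, a regulator of the cell cycle and apoptosis, went from 96.3, 73 and 58.1 CPM to 634, 537 and 759 CPM (3.08 ± 0.27, limma adjusted p = 4.3e-05). The other rises in this group were the protease inhibitor Spink2 (3.45), the augmin subunit Haus5 (3.31), Tub (3.41), Rasgrp4 (3.25) and the genes 2300002M23Rik (3.57) and Gm2076 (3.13). Gm2076 missed the threshold in edgeR's quasi-likelihood test (adjusted p = 0.11).

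The largest falls were -4.40 to -4.84, and the 15 genes included factors of ribosome and RNA production. Fcf1, a factor of the small-subunit processome, was at 100, 98.8 and 118 CPM in the GV gradients and at 1.63, 1.17 and 7.94 CPM in the MII gradients (-4.84 ± 0.55, limma adjusted p = 0.00014). Emg1, a methyltransferase that acts on the rRNA of the small subunit, went from 962, 716 and 1032 CPM to 19.3, 13.4 and 116 CPM (-4.78 ± 0.58). In both genes gradient C held the highest of the 3 MII values. The same was true of Mdh2, Fgf8 and H2ax below, while gradient B held the highest for Rtcb and Inha. Groups that do not overlap were again required of every gene named here. Polr1h, a subunit of RNA polymerase I, fell by 4.62, the tRNA ligase Rtcb by 4.62, the tRNA-modifying enzyme Qtrt1 by 4.63, the mitochondrial ribosomal protein Mrpl11 by 4.42 and the spliceosomal cyclophilin Ppie by 4.40. Rtcb had values close to each other within a stage, 138, 126 and 132 CPM against 3.73, 5.09 and 4.46 CPM. Mdh2, the mitochondrial malate dehydrogenase, was at 842, 666 and 710 CPM and then at 28.2, 19.7 and 58 CPM (-4.49 ± 0.35, limma adjusted p = 2.8e-05). Fgf8, a growth factor that oocytes secrete to the cumulus cells, was at 2293, 1377 and 3146 CPM and then at 43.8, 29.4 and 397 CPM (-4.72 ± 0.71). The histone variant H2ax fell by 4.65, from 877, 569 and 1243 CPM to 15.4, 22.2 and 102 CPM. The remaining falls of this group were Osbpl9 (-4.69), Yif1a (-4.57), the uridine phosphorylase Upp1 (-4.56), Gm7525 (-4.50) and Inha (-4.63). Inha encodes the inhibin alpha chain and is 1 of the granulosa markers above, with 23, 64.4 and 189 CPM at GV and 0, 9.13 and 0.954 CPM at MII, and the part of other cells in its fall was not tested. In edgeR's quasi-likelihood test Osbpl9 (adjusted p = 0.072), Inha (0.098) and Yif1a (0.14) missed the threshold.

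**Figure D1:**
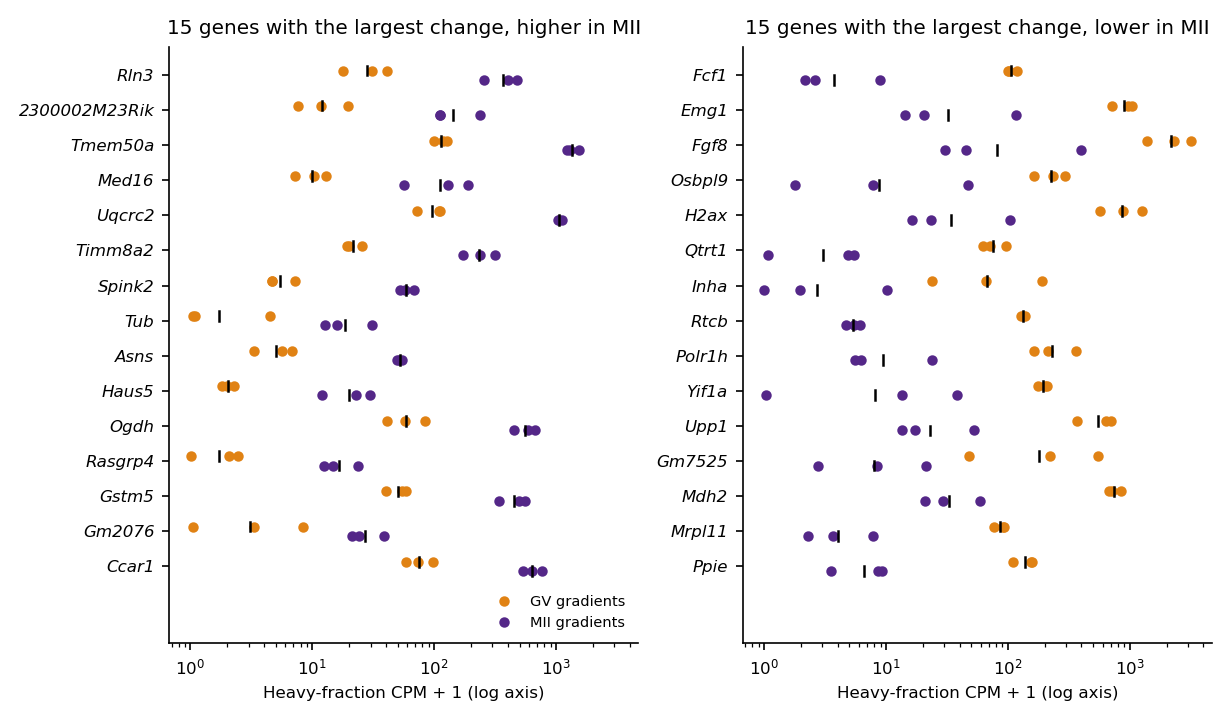
Mean CPM + 1 over fractions 6 to 10 (log axis) for the 15 genes with the largest rise (left) and the 15 with the largest fall (right). Each point is 1 of 3 gradients a stage and each black bar is the mean on the log scale. The GV and MII points of every gene are separate, which the choice of these genes required.

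Copies and pseudogenes share reads, so values of Gm2076, Gm7525, Timm8a2, Elob, Elobl, Obox5, the Nlrp and Oosp genes and the ribosomal protein genes are uncertain.

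The light fractions of the same gradients mostly held the same changes. Of the 15 largest heavy rises 14 were also higher in the light fractions of MII oocytes, with a median difference of 3.02, and all 15 of the largest falls were lower there, with a median of -3.89. Tmem50a had a light level of 99.2 CPM at GV and 1172 CPM at MII, and its shift, the change of the heavy level relative to the light level within a gradient, was -0.02 ± 0.31 (SE, n = 3 gradients a stage). Emg1 fell on both sides, with a shift of 0.21 ± 0.29. Ccar1 was the exception among the rises, with a light level of 58 CPM at GV and 10.9 CPM at MII. Heavy and light values come from the same gradients and are set side by side only.

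The shift asks which transcripts changed their heavy level relative to their light level. Each fraction is scaled to its own total and counts equally in its mean, so a shift is not a measured movement of transcripts. Of 12445 genes, 163 (1.31%) shifted toward the heavy fractions in MII and 122 (0.980%) toward the light fractions, 2.29% in all, and the median shift was -0.23. Fraction 1 of GV gradients A and B held 0.0102 and 0.0231 M reads. With light fractions 2 to 5 in place of 1 to 5, 175 genes shifted toward heavy and 109 toward light, and 156 of the 285 calls were shared. The number of calls was lowest without MII gradient B, at 65 toward heavy and 26 toward light.

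Smc4, a core subunit of condensin, and Nexn, an actin-binding protein gene, joined Ccar1 at the head of the genes that shifted toward heavy. Smc4 was at 65.3, 97.2 and 89.1 CPM in the heavy fractions of GV oocytes and at 1001, 511 and 667 CPM in those of MII oocytes, while its light level was 41.6 CPM at GV and 16.9 CPM at MII. Its shift was 4.48 ± 0.43 (limma adjusted p = 0.00093), and those of Ccar1 and Nexn were 5.20 and 4.38. All 3 transcripts were at their highest in fraction 8 of the MII gradients, where Smc4 averaged 1333 CPM against 95.5 CPM at GV and Ccar1 averaged 1173 CPM against 108 CPM. Upf3b, a factor of nonsense-mediated decay, shifted by 3.69 with a heavy change of 2.50, and its call was lost without GV gradient A (adjusted p = 0.071), GV C (0.092), MII A (0.074), MII B (0.088) or MII C (0.054).

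A second kind of shift came with a heavy level that did not pass the test. Magoh, a core protein of the exon junction complex, had 104, 84.3 and 134 CPM in the heavy fractions at GV and 98.8, 105 and 93.6 CPM at MII, and its light level was 90 CPM at GV and 5.93 CPM at MII (shift 3.57 ± 0.39, limma adjusted p = 0.00095). The heavy values of the 2 stages overlap, and the light side holds the difference. Obox5, an oocyte homeobox gene, was at 959, 1329 and 1147 CPM and then at 863, 1172 and 925 CPM in the heavy fractions, with a light level of 646 CPM at GV and 48.9 CPM at MII (shift 3.58). Sap30, a subunit of a histone deacetylase complex, had a shift of 3.67 and a heavy change of 0.10. Kbtbd8, a substrate adaptor of a ubiquitin ligase, had a shift of 3.59, which was 1.48 with light fractions 2 to 5 (adjusted p = 0.12) and lost its call without MII gradient B (adjusted p = 0.054).

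Toward the light side the 8 largest shifts were those of Ndufa3, Inha, Antxr2, Nufip1, Kbtbd11, Elob, Gm15441 and Rps12. Nufip1, a factor of small nucleolar ribonucleoprotein assembly, was at 36.1, 66.1 and 119 CPM in the heavy fractions at GV and at 6.29, 2.13 and 9.52 CPM at MII, beside light levels of 11.2 and 12.2 CPM (shift -3.51 ± 0.63). Antxr2, an anthrax toxin receptor that binds extracellular matrix, was at 9.44, 30.3 and 4.51 CPM and then at 0, 0.388 and 0 CPM, beside light levels of 4.03 and 3.93 CPM (shift -3.65). In these 2 genes the light level was about the same at both stages. Without MII gradient B, Nufip1 (adjusted p = 0.07) and Antxr2 (0.057) lost their calls, and Nufip1 also without GV gradient C (0.072). Ndufa3, a subunit of respiratory complex I, had heavy levels of 23.3, 25 and 61.9 CPM and then 68.5, 41.9 and 57 CPM, while its light level was 29.1 CPM at GV and 1364 CPM at MII (shift -4.86). With light fractions 2 to 5 the shifts of Ndufa3 (-1.20, adjusted p = 0.13), Elob (-1.41, 0.059), Rps12 (-0.57, 0.41), Kbtbd11 (-1.48, 0.36) and Gm15441 (-1.19, 0.25) lost their calls, so these 5 rest on fraction 1. The call of Inha was lost without GV gradient B or C or MII gradient A or C (adjusted p of 0.053 to 0.085).

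The transcripts that shifted toward heavy more often carried a cytoplasmic polyadenylation element at their 3′ end. The element was searched as TTTTAT or, with an added base, as TTTTAAT, on the sense strand, in the last 100 bases of 1 GENCODE M21 transcript a gene. It was present in 62 of the 157 matched genes that shifted toward heavy (39.5%), in 18.8% of all matched genes tested and in 3 of the 111 that shifted toward light (2.7%). With light fractions 2 to 5 these shares were 41.4%, 18.8% and 17.8%, so the low share on the light side rests on fraction 1. The share of A and T in these last 100 bases was also different, with medians of 69% toward heavy, 64% in all genes and 56.9% toward light, and its part in the shares was not tested. The polyadenylation signal AATAAA, or its common variant ATTAAA, was found in 87.9%, 78.9% and 79.3% of the 3 groups. Over the heavy change itself the element was in 14.5% of the genes that rose and 12.7% of those that fell, against 18.9% of all tested.

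The windows below, 30 bases each, show where the element lies in 7 of the transcripts described here, with the element and any polyadenylation signal inside the window in capitals. Ccar1, Nexn, Magoh, Orc6, Cnot7 and Plat shifted toward heavy, and Bub1b, which has the element beside its signal, fell in the heavy fractions.
Ccar1: gtcattaATTAAAaatatttTTTTAATtaa
Nexn: aatattgggtggTTTTATatttaattttct
Magoh: tattggggcaatTTTTATaaacAATAAAtg
Orc6: tggttttttaaaTTTTATttcactaaatgt
Cnot7: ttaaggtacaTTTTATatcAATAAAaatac
Plat: gtatatttataTTTTAATctattttagttt
Bub1b: cactgtgtaTTTTATAATAAAatagttttt
Of the 8 genes with the largest shift toward heavy, 4 carried the element in their last 100 bases and the other four (Smc4, Upf3b, Kbtbd8 and Obox5) did not. The element was also in 4 of the 12 matched genes among the 15 largest falls in the heavy fractions (Emg1, Osbpl9, Qtrt1 and Mrpl11) and in 1 of the 14 matched among the 15 largest rises (Ccar1). A match is a description of the letters and not a measured binding site, and the transcripts are of the GRCm38 annotation, not of the build the reads were aligned to.

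**Figure D2:**
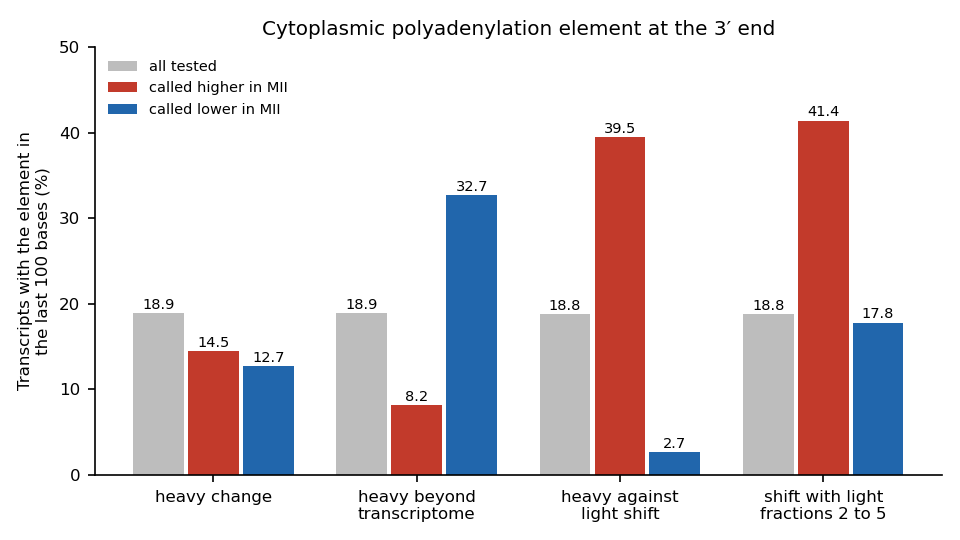
Percent of matched transcripts with a cytoplasmic polyadenylation element in their last 100 bases, for all tested genes (grey) and for genes called higher (red) or lower (blue) in MII in each comparison. The shares among genes that shifted toward heavy, 39.5% and 41.4%, stand above the 18.8% of all genes under both definitions of the light side.

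A list of 15 genes known for translation that is activated in maturation was described as a whole. None of the 15 rose in the heavy fractions and 3 fell (Bub1b, Tex19.1 and Aurka), beside 6.23% and 16.2% of all tested genes, and their median heavy change was -0.16, which had the opposite sign in edgeR's fit (0.09). In contrast 5 of 15 shifted toward heavy (Plat, Cnot7, Orc6, Ccnb1 and Mos), beside 1.31% of all genes, and the median shift was 1.33 against -0.23 for all genes. In the transcriptomes 9 of 15 were higher in MII, beside 10.0% of all genes, and 1 lower (Aurka), beside 29.0%. Relative to the transcriptome 9 of 15 were lower in the heavy fractions and none higher, beside 7.53% and 17.3% of all genes. The fall of Tex19.1 passed in neither edgeR (adjusted p = 0.13) nor DESeq2 (0.055) and was lost without GV gradient A or C or MII gradient A or B, and that of Aurka was -0.98 in edgeR, under the size threshold. The element above was in 6 of the 15. Of these, Plat, Cnot7 and Orc6 shifted toward heavy, and Aurka, Btg4 and Bub1b were not called for the shift. Ccnb1 and Mos, which shifted, did not have the element in the bases searched.

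Plat had the largest of these shifts. It was at 2134, 2521 and 2473 CPM in the heavy fractions of GV oocytes and at 724, 1892 and 1902 CPM in those of MII oocytes, and its light level was 3141 ± 801 CPM at GV and 281 ± 67.6 CPM at MII (SD, n = 3). The shift was 2.69 ± 0.29 (limma adjusted p = 0.00094). Its highest mean at GV was in fraction 4 (5589 CPM) and at MII in fraction 10 (3679 CPM), while fraction 10 of GV gradients averaged 3428 CPM. Ccnb1 had 1179, 1652 and 1262 CPM and then 773, 1569 and 1204 CPM in the heavy fractions, which overlap, and a light level of 1253 CPM at GV and 337 CPM at MII (shift 1.61 ± 0.29, limma adjusted p = 0.014). The Mos kinase overlapped too, at 2969, 2473 and 2282 CPM and then 1907, 3223 and 2069 CPM (shift 1.31). Orc6, a subunit of the origin recognition complex, shifted by 2.17, and the deadenylase Cnot7 by 2.68. Among these, Plat kept its call when any 1 gradient was left out, Mos lost it in 5 of 6 such fits (the exception was MII gradient C), Ccnb1 in 4 of 6 (GV B, GV C, MII B and MII C), Cnot7 in 5 of 6 (not MII C) and Orc6 in 2 of 6 (GV B and GV C), with adjusted p of 0.052 to 0.14. With light fractions 2 to 5 the shift of Cnot7 was 1.65 (adjusted p = 0.053).

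**Figure D3:**
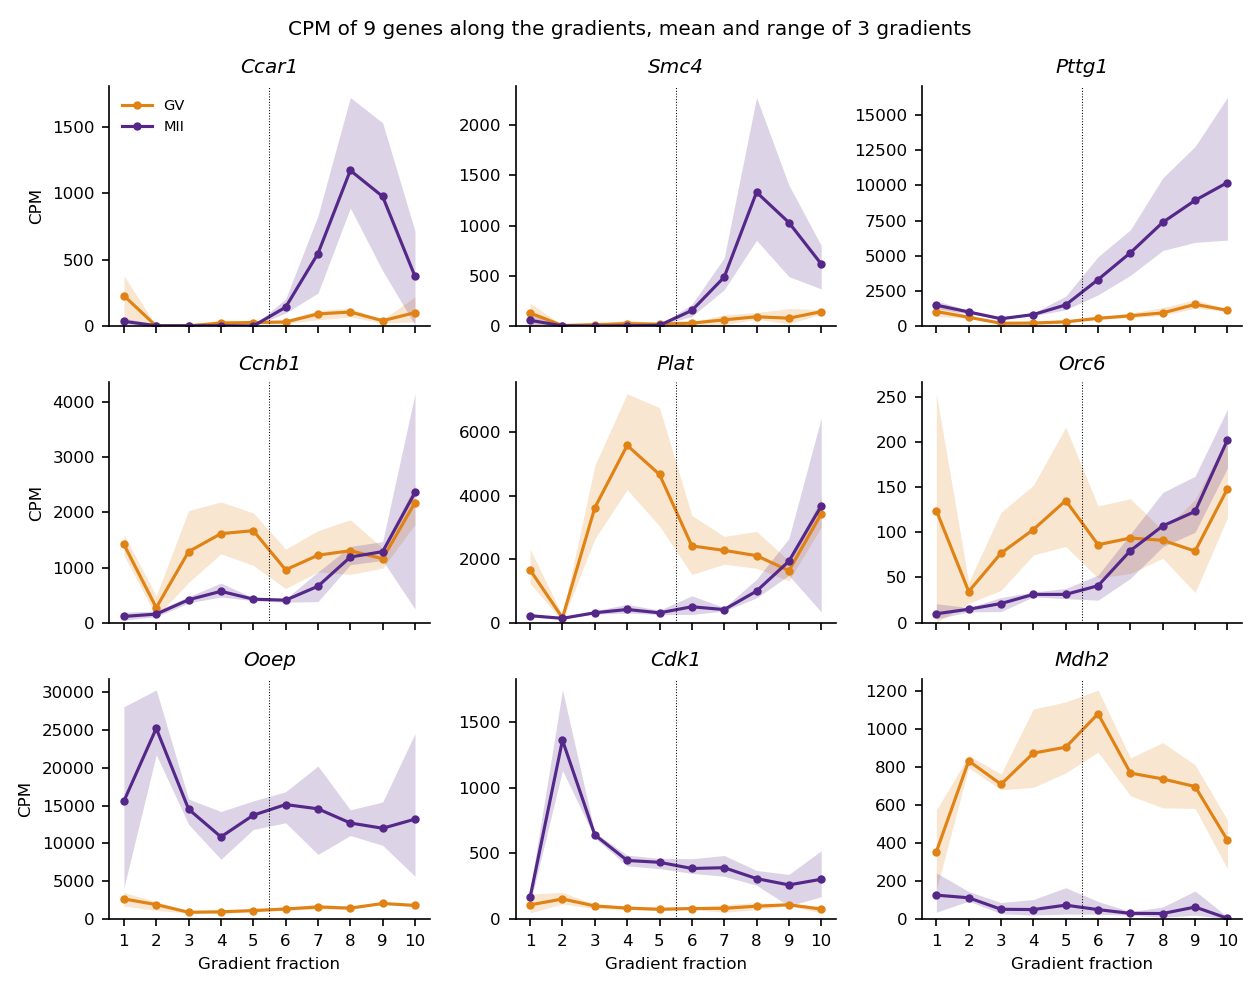
CPM (linear axis) along the 10 fractions for 9 genes, with the mean (line) and range (band) of 3 GV and 3 MII gradients, and a dotted line between the light and heavy sides. Ccar1, Smc4 and Pttg1 are higher in the heavy fractions of MII, Ccnb1, Plat and Orc6 are lower in its light fractions, Ooep and Cdk1 are higher on both sides, and Mdh2 is lower on both sides.

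The heavy change was then set against the transcriptome, which shares no library with the gradients. In the transcriptomes 1266 of 12604 genes were higher and 3651 lower in MII, 39.0% in all. Of the 1871 genes that fell in the heavy fractions 1453 also fell in the transcriptome (77.7% of the heavy falls and 42.1% of the 3455 transcriptome falls among the same genes), and 16 rose there. Of the 717 genes that rose in the heavy fractions 198 also rose in the transcriptome (27.6% of the heavy rises and 16.1% of the 1231 transcriptome rises), 451 passed no threshold there and 68 fell. A fit that asked whether the stage difference depended on the type of library called 2178 genes higher in the heavy fractions than the transcriptome change would give (17.3%) and 949 lower (7.53%), 24.8% in all. With quantile normalization the split was 1832 higher and 1334 lower, and with weights for each kind of library it was 1732 and 688.

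**Figure D4:**
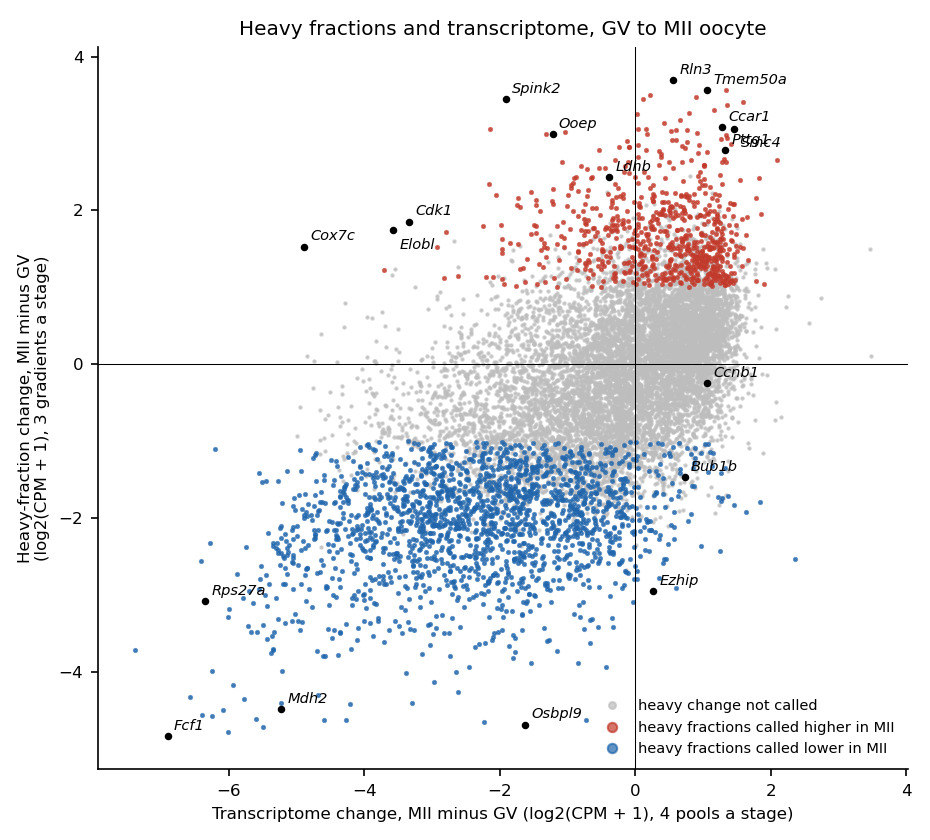
Change of the heavy fractions (y axis, 3 gradients a stage) against change of the transcriptome (x axis, 4 pools a stage), both MII minus GV on the log2(CPM + 1) scale, for 11516 genes, with red and blue for genes called higher or lower in the heavy fractions. Falls lie mostly at the lower left, where both fell, while rises spread from transcripts that rose to transcripts that fell in the transcriptome, such as Cdk1, Elobl and Cox7c.

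Genes far above their transcriptome change included Cdk1, the kinase partner of cyclin B. The choice of the genes named in this group required all 3 heavy MII values to lie above the 3 heavy GV values. Their heavy rise was thus fixed by the choice, and genes whose heavy level held could not be named. Cdk1 was at 89, 91.7 and 86.2 CPM in the heavy fractions of GV oocytes and at 398, 333 and 258 CPM in those of MII oocytes, while its transcriptome level was 256 ± 5.7 CPM at GV and 25.5 ± 8.87 CPM at MII (SD, n = 4). The heavy change was 1.85, the transcriptome change -3.34 and their difference 5.20 ± 0.32 (limma adjusted p = 4.3e-08). The 2 kinds of library thus moved in opposite directions, and the light level of Cdk1 went the way of the heavy level, with 104 CPM at GV and 610 CPM at MII. Elobl, a copy of the elongin B gene that is abundant in oocytes, was at 3996, 3885 and 5267 CPM and then at 17370, 11670 and 15080 CPM in the heavy fractions, with 6814 ± 398 CPM and 609 ± 242 CPM in the transcriptomes (difference 5.31 ± 0.34). Its light level rose as well, from 3962 CPM at GV to 15440 CPM at MII. The other genes of this group were Cox7c (6.42), Spink2 (5.37), 2210417A02Rik (5.21), the vesicle GTPase Rab3b (4.93), the isocitrate dehydrogenase subunit Idh3b (4.79) and 1300002E11Rik (4.51). The heavy change of Idh3b did not pass the test (1.24, adjusted p = 0.11), and those of Cox7c, Rab3b and 1300002E11Rik did not pass without MII gradient A (1.31, 0.89 and 1.27), nor Cox7c and 1300002E11Rik without GV gradient A (1.23 and 1.43).

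Genes far below their transcriptome change included Ezhip, an inhibitor of the PRC2 histone methyltransferase. For this group the choice required all 3 heavy MII values to lie below the 3 heavy GV values. Ezhip was abundant in the heavy fractions at GV, at 15530, 7158 and 12630 CPM, and was at 617, 1570 and 3096 CPM at MII, while its transcriptome level was 958 ± 139 CPM and 1162 ± 286 CPM (difference -3.22 ± 0.54, limma adjusted p = 0.00027). Its light level went from 8990 CPM to 475 CPM, so Ezhip fell on both sides of the gradient and not in the transcriptome. The light side fell further, so Ezhip shifted toward heavy (1.51 ± 0.24, limma adjusted p = 0.0072). With light fractions 2 to 5 this shift was 1.48 (limma adjusted p = 0.018). The others were Inha (-3.90), Pik3ap1 (-3.67), Heatr3 (-3.52), Baiap3 (-3.51), Trafd1 (-3.33), Kank2 (-3.13) and Gpat2 (-3.08), and apart from Inha their heavy GV values were at most 74.8 CPM. The polyadenylation element was in 32.7% of the 904 matched genes that were low relative to the transcriptome, in 8.2% of the 1931 that were high and in 18.9% of all. The share of A and T in the last 100 bases moved with it, with medians of 67%, 59% and 64%, and its part in these shares was not tested. The coding sequence was shorter in those that were high, with a median of 942 bases against 1419 in all genes and 1671 in those that were low.

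The machinery of meiotic division changed gene by gene. Of 24 genes of M-phase promoting factor and meiotic arrest 5 rose (20.8%), among them Cdk1, Mapk3, Prkar1a and Gpr3, and 1 fell (4.17%, Ensa), beside 6.23% and 16.2% of all tested genes. Mapk3, a MAP kinase that acts below Mos, was at 598, 585 and 615 CPM and then at 2229, 1602 and 2801 CPM (1.84 ± 0.25, limma adjusted p = 0.00037). Its light level rose further, from 512 to 4553 CPM, so Mapk3 shifted toward light (-1.44, limma adjusted p = 0.044). With light fractions 2 to 5 this shift was -1.71 (limma adjusted p = 0.0042). The call was lost in 5 of 6 fits without 1 gradient, all but the one without GV gradient A. Prkar1a, the regulatory subunit of protein kinase A, rose by 1.67. The call of Ensa, an inhibitor of the phosphatase PP2A, was lost in 5 of 6 fits without 1 gradient, all but the one without MII gradient A.

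Of 29 genes of the anaphase-promoting complex and the spindle checkpoint 3 rose (Pttg1, Anapc11 and Ube2s) and 4 fell (Cdc20, Ttk, Bub1b and Bub1). These shares, 10.3% and 13.8%, are near the 6.23% and 16.2% of all tested genes. Pttg1 encodes securin, the inhibitor of separase that the complex destroys at anaphase. It was at 888, 905 and 1194 CPM in the heavy fractions at GV and at 7716, 8672 and 4665 CPM at MII (2.78 ± 0.28, limma adjusted p = 7e-05), and it also shifted toward heavy (1.65), a call that was lost without MII gradient B (adjusted p = 0.057). Pttg1 climbed along the MII gradients from 1522 CPM in fraction 5 to 10211 CPM in fraction 10. The heavy level of Cdc20, the activator of the complex, fell from 814, 655 and 526 CPM to 44.2, 309 and 194 CPM (-2.23 ± 0.53, limma adjusted p = 0.0091), and missed the threshold in edgeR's fit (adjusted p = 0.087). Its light level fell further, from 811 to 49.5 CPM, so Cdc20 also shifted toward heavy (1.99, limma adjusted p = 0.044), a call that was lost in 5 of 6 fits without 1 gradient, all but the one without MII gradient A (adjusted p of 0.056 to 0.14). The checkpoint kinase Ttk was at 216, 260 and 216 CPM and then at 67.8, 84.2 and 48.6 CPM. Fzr1, the other activator, was at 850, 898 and 862 CPM and then at 773, 714 and 1239 CPM, with overlapping groups and a change of 0.02.

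Of 32 tested spindle and chromosome segregation genes 2 rose (Smc3 and Cenpf) and 8 fell, among them the microtubule polymerase Ckap5 (-1.58), the kinetochore protein Spc24 (-1.61) and the meiotic cohesin subunit Stag3 (-2.43). Smc3, a cohesin core subunit, was at 102, 110 and 103 CPM and then at 505, 220 and 308 CPM. Plk1 did not pass the test, with 1025, 836 and 637 CPM and then 933, 1149 and 867 CPM. The shares that rose and fell were 6.25% and 25%, beside 6.23% and 16.2% of all tested genes, and the median of the list was -0.16 and was 0.05 with quantile normalization.

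Factors of mRNA storage and decay included rises and falls of close relatives. Zar1, an oocyte RNA-binding protein that stores maternal transcripts, was at 2348, 2019 and 2041 CPM in the heavy fractions at GV and at 5374, 4597 and 6061 CPM at MII (1.32 ± 0.24, limma adjusted p = 0.0022). Its paralog Zar1l was at 155, 122 and 125 CPM and then at 26.9, 23.4 and 79.8 CPM (-1.82 ± 0.42, limma adjusted p = 0.0075), and missed the threshold in edgeR's fit (adjusted p = 0.062). Of the 29 storage and translation regulators tested 3 rose (Larp4, Zar1 and Igf2bp3) and 2 fell (Zar1l and Caprin1). The call of Caprin1 was lost without GV gradient B or C or MII gradient B or C (adjusted p of 0.062 to 0.12). Of 17 deadenylation genes 2 rose (Cnot9 and Tob2) and 4 fell (Cnot10, Tob1, Cnot8 and Parn). Cnot8, a catalytic subunit, was at 219, 274 and 220 CPM and then at 25.5, 109 and 95.1 CPM, and Cnot9, a scaffold subunit, at 73.5, 49.2 and 63.8 CPM and then at 193, 210 and 140 CPM. The calls of Cnot8 (adjusted p = 0.073) and Cnot10 (0.083) missed the threshold in edgeR's fit, and without 1 gradient that of Cnot10 was lost without GV B or MII B and that of Tob1 without GV A (adjusted p of 0.057 to 0.097). Btg4, which brings the deadenylase to its targets, did not pass the test, with 2165, 2397 and 2861 CPM and then 1857, 1918 and 1720 CPM. Of 20 decapping and decay genes none rose and 2 fell, the Sm-like protein Lsm3 (-1.95) and the oocyte protein Patl2 (-1.33), whose call was lost without GV gradient C (adjusted p = 0.065). The shares that rose and fell were 10.3% and 6.9% for storage, 11.8% and 23.5% for deadenylation and 0% and 10% for decapping and decay, beside 6.23% and 16.2% of all tested genes.

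Of 85 cytosolic ribosomal protein genes tested 38 fell and 6 rose, with a median of -1.04, beside 16.2% and 6.23% and a median of -0.22 for all genes. Rps27a was at 57.4, 78.2 and 81 CPM and then at 7.78, 3.68 and 14.2 CPM (-3.08), and Rpl3 at 20.2, 24.6 and 24.7 CPM and then at 3.62, 1.28 and 1.35 CPM (-3.05). Those that rose included Rpl13 (2.28), Rpl11 (2.07), Rps24, Rpl17 and Rpl10. In the transcriptomes 73 of 85 fell and none rose, with a median of -3.09, beside 29.0% and 10.0% of all genes. Relative to the transcriptome 63 of 85 were thus higher in the heavy fractions and none lower, beside 17.3% and 7.53% of all genes. The same pattern held for the 83 nuclear genes of oxidative phosphorylation, with 33 falls and 9 rises in the heavy fractions (median -0.84). In the transcriptomes 68 fell and 2 rose (median -3.05). Relative to the transcriptome 70 were higher and 1 lower, beside the same shares of all genes. In the shift 20 of these 83 genes were called toward light, beside 0.980% of all genes. These calls were absent with light fractions 2 to 5, which gave 1 toward heavy and 0 toward light. Of the 85 ribosomal protein genes 1 shifted toward heavy and 6 toward light, and 2 and 0 with light fractions 2 to 5. The median shift was -0.55 for ribosomal protein genes and -0.7 for oxidative phosphorylation, beside -0.23 for all genes. The excess over the transcriptome is thus not a measure of the heavy side against the light side.

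Within oxidative phosphorylation, subunits of 1 complex moved apart. Ndufa9, a subunit of complex I, was at 431, 438 and 392 CPM and then at 43, 28.7 and 47.1 CPM (-3.40 ± 0.27, limma adjusted p = 3.3e-05), while Ndufa10 (2.94), Ndufa1 (2.55) and Ndufa4 (2.50) rose. In complex III, Uqcrc2 rose by 3.47 and Uqcrfs1 fell by 2.13. The ATP synthase subunit Atp5b did not pass the size threshold, with 553, 599 and 461 CPM and then 877, 1190 and 744 CPM, and Atp5j2, a subunit of the membrane part of the same enzyme, fell by 3.29. Of 72 mitochondrial ribosomal protein genes 27 fell (37.5%) and 9 rose (12.5%), with a median of -0.80. Of all tested genes 16.2% fell and 6.23% rose. Mrpl14 was at 424, 254 and 492 CPM and then at 30.9, 15.1 and 78.8 CPM, and Mrpl45 (2.22) and Mrpl21 (2.00) were the largest rises.

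Of 36 proteasome genes 15 fell and 2 rose (Psma7 and Psmd1), with a median of -0.76. Psmb4, a subunit of the core particle, was at 432, 470 and 498 CPM and then at 46.3, 26.4 and 111 CPM (-3.15 ± 0.41, limma adjusted p = 0.00028). Of 11 genes listed under elongation and termination, which are not all factors of these steps, 5 fell (Eef1a1, Eef1d, Eef1g, Eef2k and Eef1e1) and none rose. Eef2, Eef1b2, Eif5a, Etf1, Gspt1 and Gspt2 were not called. Eef1a1, which delivers aminoacyl-tRNA to the ribosome, was at 285, 302 and 222 CPM and then at 34.8, 29.1 and 41.7 CPM. Of 19 aminoacyl-tRNA synthetase genes 8 fell, led by the alanine enzyme Aars (-2.41), and 2 rose (Eprs and Vars). Of 52 initiation factor genes 13 fell and 5 rose (Eif4a2, Eif3a, Eif5b, Eif2s2 and Eif4e3), and their median of -0.33 was 0.05 in edgeR's fit. Beside 6.23% and 16.2% of all tested genes, the shares that rose and fell were 5.56% and 41.7% for the proteasome, 0% and 45.5% for elongation, 10.5% and 42.1% for the synthetases and 9.62% and 25% for initiation, whose ratio of falls to rises is like that of all genes. The subunits of eIF2, which carries the initiator tRNA, parted: Eif2s1 was at 26.8, 55.9 and 47.7 CPM and then at 7.09, 5.84 and 4.6 CPM (-2.65), and Eif2s2 rose by 1.30.

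**Figure D5:**
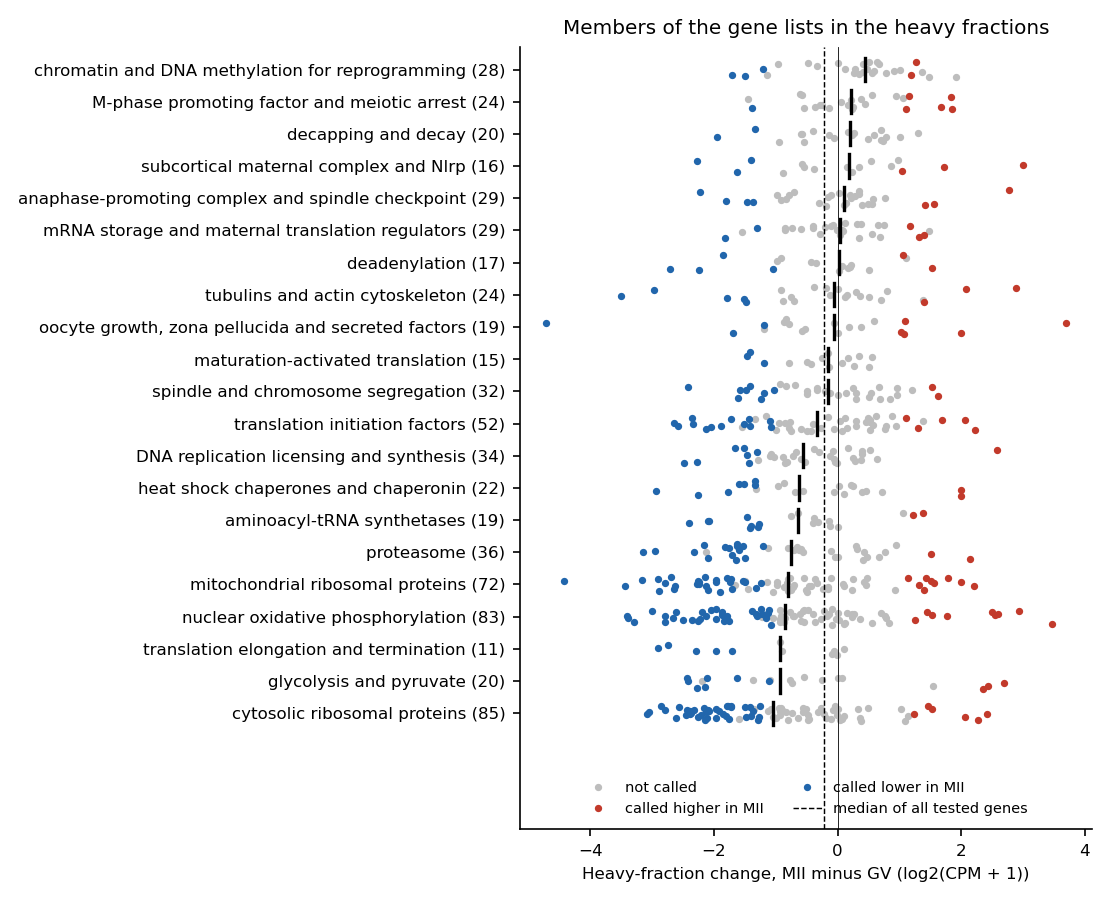
Change of the heavy fractions, MII minus GV (log2(CPM + 1)), for each tested member of 21 gene lists, with the number of members in brackets. Points are genes, coloured by their call, black bars are list medians and the dashed line is the median of all tested genes (-0.22). Ribosomal protein, glycolysis, elongation, respiratory and proteasome genes have the lowest medians, from -1.04 to -0.76.

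Oocyte-specific genes were found on both sides. Ooep, a subunit of the subcortical maternal complex, was at 1520, 1592 and 1837 CPM in the heavy fractions at GV and at 18290, 10370 and 11890 CPM at MII (2.995 ± 0.28, limma adjusted p = 5.2e-05). Its light level was 1513 CPM at GV and 15980 CPM at MII, and its transcriptome changed by -1.22, so the heavy change lay 4.22 above it. Of 16 genes of this complex and the Nlrp family 3 rose (Ooep, Nlrp9c and Padi6) and 3 fell (Nlrp4c, Nlrp2 and Nlrp4f), 18.8% each beside 6.23% and 16.2% of all tested genes. The call of Nlrp4c was lost without GV gradient A or B or MII gradient A or C (adjusted p of 0.059 to 0.12). The call of Padi6 was lost without GV gradient B (adjusted p = 0.077) and under the size threshold without MII gradient B (0.76). Of 19 oocyte growth, zona pellucida and secreted factor genes 5 rose (Rln3, Oosp2, Bmp15, Astl and Oosp1) and 3 fell (Fgf8, Cd9 and Izumo1r), which is 26.3% and 15.8%. Cd9, a membrane protein needed for sperm fusion, was at 91.5, 140 and 96.1 CPM and then at 31.6, 25 and 43 CPM. Gdf9, a growth factor of the oocyte, did not pass the test although its groups were separate, at 8128, 8362 and 7674 CPM and then 10170, 15730 and 11110 CPM. The call of Bmp15 was lost without GV gradient A (0.94) or MII gradient C (0.99), both under the size threshold, and that of Oosp1 without GV gradient A or B or MII gradient A.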

How the data were processed

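The deposited values are CPM (read counts scaled to the library total) per gene symbol, made by the authors from reads handled, per the submitters' processing notes, with Trim Galore 0.6.7, FastQC, HISAT2 2.2.1, featureCounts 2.0.1 and edgeR on GRCm39. Of the deposited columns, 9 of other stages were recorded as signal because repeated symbols raise their sums above the CPM total, and they enter only the fit of all 8 stages. Per the labels' protocols, fractions were extracted with Trizol and libraries made by Smart-seq amplification and Nextera tagmentation. Of 15854 symbols 15771 were kept, and 76 groups of repeated symbols were left out. Low values are whole multiples of 1 read in 100% of values (tolerance 0.05) in all 68 GV and MII libraries, so reads were recovered for added count tests: edgeR called 932 genes higher and 1080 lower, and DESeq2 1239 and 1488.

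CPM was averaged over fractions 6 to 10 of a gradient. Genes with at least 1 CPM in at least 3 of 6 means were tested as log2(CPM + 1) with limma 3.58.1 (R 4.3.3, mean-variance trend), a pseudocount of 1 that understates changes of low genes. A call needs a Benjamini-Hochberg adjusted p under 0.05 and a change of at least 1. The comparison with the transcriptome is an interaction in a fit of 6 heavy means and 8 transcriptomes, and the shift is the log2 heavy minus log2 light mean within a gradient. An exact permutation of 3 against 3 cannot go below p = 0.1, so none is given. Named genes were the 15 largest calls a direction in the heavy change and 8 in each other comparison. Their groups do not overlap, in heavy values or, for the shift, in the differences within gradients. Their higher heavy mean is at least 10 CPM. Then came up to 4 called members and the most abundant uncalled members of each list. Some list members are not reported here. Other list members are named where a count needs them, after their values were seen. The members and lists were chosen with earlier results of these data known. Same-lettered GV and MII gradients did not deviate together (r of -0.065, 0.025 and 0.01). Motifs were searched by symbol in GENCODE M21 (GRCm38), not the build of the files, a step planned only for GRCm39, and no coordinates are given. The added tests used edgeR 4.0.16 and DESeq2 1.42.0, and the scripts were tested on simulated data. Alternatives covered the pseudocount, filter, scaling, fractions, replicate block and single gradients.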

Additional observations from a re-analysis of the deposited data

Results flagged for a closer look

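Heatr3 in the GV transcriptomes was at 7.33, 7.56, 7.64 and 9.17 CPM, and the highest value lay apart from the others by 0.83 of the range (Dixon's test, 95% level). It was the only one of 62 groups of 4 transcriptomes to do so (1.6%), where chance would flag about 1 in 20.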

How the results depend on the processing

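The heavy change called 1142 genes higher with quantile normalization, 1239 with DESeq2, 414 with fractions 8 to 10 and 121 with all 8 stages in the fit, where 468 were lower; edgeR gave 1080 lower. Single fractions called 826 higher and 1277 lower in fraction 6, 170 higher and 436 lower in fraction 7, 131 and 448 in fraction 8, 165 and 618 in fraction 9, and 1 and 31 in fraction 10. The cause was not tested. Leaving out gradients gave 429 to 681 higher and 868 to 1938 lower, lowest without both gradients A (429 and 1180) or both B (474 and 868). Against the transcriptome these fits gave 2097 to 2432 higher and 856 to 1184 lower. For the shift they gave 65 to 147 and 26 to 93, with 107 and 46 without GV B, 104 and 67 without GV C, 65 and 26 without MII B, and 71 lower without GV A. The gradient letters share only a name. With them as a replicate block the counts were 693 and 1835 for the heavy change, 2041 and 878 against the transcriptome, and 122 and 61 for the shift. Of 131 named genes called in the heavy change, quantile normalization kept 119, edgeR 110, DESeq2 124 and the fit of all 8 stages 60. Directions reversed for Med16 in fraction 8 (-0.60), Sap30 in fraction 6 (-1.51), Larp4 in fraction 7 (-0.20), Caprin1 in fraction 6 (0.45), Padi6 (-0.07) and Bmp15 (-0.16) in fraction 10, Oosp1 in fractions 6 (-0.58) and 7 (-0.57) and Cyp19a1 in fraction 8 (-3.44), and for the shift of Atp5j2 (0.56) with light fractions 2 to 5.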

Other observations

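Actb, the cytoplasmic beta-actin, was at 189, 145 and 174 CPM at GV and at 1500, 1294 and 1007 CPM at MII (2.88 ± 0.25, SE, n = 3 gradients a stage, limma adjusted p = 4.2e-05), and Arpc2 of the actin-branching complex rose by 2.08. Tuba4a, an alpha-tubulin, went from 1738, 1599 and 1267 CPM to 71.5, 131 and 253 CPM (-3.50 ± 0.37). Of the 24 tubulin and actin genes 3 rose (12.5%) and 5 fell (20.8%, among them the actin nucleator Spire2), beside 6.23% and 16.2% of all tested genes, and their median was -0.06 and 0.31 in edgeR's fit.

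Of 20 glycolysis and pyruvate genes 3 rose (15%) and 7 fell (35%), beside 6.23% and 16.2% of all tested genes. Ldhb, the lactate dehydrogenase chain that is abundant in oocytes, was at 1222, 1295 and 1966 CPM and then at 7774, 10280 and 6136 CPM (2.43), while the glucose transporter Slc2a1 was at 308, 162 and 287 CPM and then at 24.7, 43.7 and 80.5 CPM (-2.42). Of 22 chaperone genes 2 rose (9.09%) and 7 fell (31.8%), beside the same shares of all tested genes. Hsp90aa1, a cytosolic HSP90, was at 470, 575 and 630 CPM and then at 3271, 1682 and 2016 CPM, and it shifted toward heavy by 2.53 (limma adjusted p = 0.00094). The chaperonin subunit Cct5 was at 541, 695 and 472 CPM and then at 79.4, 72.2 and 65.3 CPM (-2.95).

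Of 34 replication genes 1 rose (2.94%) and 7 fell (20.6%), shares near the 6.23% and 16.2% of all tested genes. Gins4, a subunit of the replicative helicase, was at 84.4, 82.9 and 90 CPM and then at 618, 551 and 408 CPM (2.58), and the helicase subunit Mcm6 was at 117, 149 and 116 CPM and then at 22.3, 20.8 and 35.2 CPM (-2.27). Of 28 chromatin genes 2 rose (7.14%) and 3 fell (10.7%), beside the same shares of all tested genes. Dnmt3l, a cofactor of DNA methylation, was among the falls (-1.71). The ribosomal RNA Rn18s, which poly(A) libraries hold in part, was at 1882, 1505 and 3108 CPM and then at 11840, 10930 and 6875 CPM (2.22 ± 0.32, limma adjusted p = 0.00053).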
